A study of Mus musculus with 6 samples.

Results

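The caspases are a family of cysteine proteases that cut their substrates after aspartate. The family members described are Casp1, Casp2, Casp4, Casp6, Casp8, Casp9, Casp12 and Casp14. They were taken by name: every probe set whose array annotation gave exactly 1 symbol, and that symbol one of these 8, was used. This gave 83 probe sets for 8 genes, out of 212097 such probe sets for 20416 genes. Other caspase genes were not analysed here. The genes were selected on their names, but the family itself was chosen by a measured value, the Meg3-minus-vector difference of Casp4 in these arrays. The differences below, and the p-values of the fit over all genes, therefore describe this comparison and lend it no independent support.

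Microarrays, 6 in all, measured RNA of MIN6-4N, an insulinoma line of the mouse that serves as a model of pancreatic beta cells. The Meg3 group was 3 cultures of 1 clone stably transfected with pcDNA3.1-mMeg3, a plasmid carrying mouse Meg3, an imprinted long non-coding RNA. The vector group was 3 cultures of 1 clone that had taken up the empty plasmid pcDNA3.1. Per the labels' protocols, both clones were selected in 750 µg/ml G418 for 5 weeks and then kept in 500 µg/ml G418 with 15% serum, so the controls carry the plasmid and the drug too. With 1 clone in each group, the spread behind every p-value is that between cultures, and the plasmid's effect and any further difference between the clones cannot be told apart. The extract protocol speaks of a single Meg3 clone, Meg-5, while the titles of the 3 cultures read Meg-3, so that these are 1 clone rests on the protocol. The labels' descriptions also speak of sorted cells, which no protocol mentions.

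Inflammatory and apoptotic caspases work in different pathways. Caspase-1, encoded by Casp1, is switched on in inflammasomes, where it matures the cytokines IL-1β and IL-18 and cuts gasdermin D, whose fragments open pores in the plasma membrane. Mouse Casp4 encodes the enzyme also called caspase-11, which binds bacterial lipopolysaccharide in the cytosol and cuts gasdermin D as well. Transcription of both genes is known to be induced by interferons and by Toll-like receptor signals in mouse cells. Caspase-8 starts apoptosis below death receptors, caspase-9 starts it in the apoptosome after cytochrome c leaves mitochondria, and caspase-6 is a downstream protease that cuts lamin A. Beta cells are known to respond to IL-1β through an abundant IL-1 receptor, and to die by apoptosis in autoimmune diabetes.

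Casp1, Casp4 and Casp12 are consecutive on chromosome 9, in that order, in the RefSeq gene table of GRCm38.p6, while the other members lie on chromosomes 1 (Casp8), 3 (Casp6), 4 (Casp9), 6 (Casp2) and 10 (Casp14). The sequences just upstream of the 3 neighbours are shown because these genes sit side by side while Casp1 and Casp4 were lower in the Meg3 clone and Casp12 was too dim to read. They are the 250 bases before the annotated start, from the RefSeq promoter table of GRCm38.p6, on the plus strand, 5′ to 3′, with capitals marking matches to the motifs named after them.
Casp1, chr9:5298267-5298516: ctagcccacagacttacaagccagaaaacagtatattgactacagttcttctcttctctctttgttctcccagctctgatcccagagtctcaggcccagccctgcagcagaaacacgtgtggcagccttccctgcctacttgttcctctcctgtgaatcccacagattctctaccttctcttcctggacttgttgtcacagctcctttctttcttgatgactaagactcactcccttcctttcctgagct
Casp4, chr9:5308599-5308848: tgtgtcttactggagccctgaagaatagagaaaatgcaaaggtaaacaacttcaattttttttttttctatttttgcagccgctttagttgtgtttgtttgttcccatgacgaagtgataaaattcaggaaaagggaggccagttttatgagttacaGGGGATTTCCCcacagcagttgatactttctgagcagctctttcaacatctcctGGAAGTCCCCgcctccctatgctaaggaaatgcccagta
Casp12, chr9:5345226-5345475: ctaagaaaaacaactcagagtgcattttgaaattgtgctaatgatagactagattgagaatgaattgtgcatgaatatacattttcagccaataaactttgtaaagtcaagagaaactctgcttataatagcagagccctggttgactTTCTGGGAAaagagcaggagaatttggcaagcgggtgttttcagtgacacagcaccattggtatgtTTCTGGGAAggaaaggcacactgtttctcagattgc
All 8 caspases matched this table, Casp4 with 2 starts, of which the upstream one is shown.

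The windows were searched on both strands for 4 motifs. These were the core of the interferon response element (GAAA, any 2 bases, GAAA), the gamma-activated site bound by STAT factors (TTCNNNGAA), the NF-κB motif and the TATA motif (TATAAA). The Casp4 window held 3 matches to the NF-κB motif, of which 2 overlap and together read GGGGATTTCCC. Their first bases lie 93, 92 and 39 bases before the start. The Casp12 window held 2 gamma-activated site matches, 102 and 36 bases before the start. The Casp1 window held no match to any of the 4 motifs. Among all 32851 windows of this length, 7.25% held the NF-κB motif, 7.02% the gamma-activated site, 2.98% the interferon core and 12.4% the TATA motif. The remaining 5 caspases had no match to these motifs in their windows. A match, or none, says only what letters stand in these windows.

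CpG dinucleotides were fewer before the inflammatory genes than before the other caspases. The 250 bases upstream held 1 CpG for Casp1, 3 for Casp4 and 1 for Casp12. Among the apoptotic genes the count was 5 for Casp8, 11 for Casp6, 17 for Casp2 and 25 for Casp9, and Casp14 had 8. The median of all windows was 6, with quartiles of 2 and 16. Casp1 and Casp12 lay below the lower quartile, and Casp4 and Casp8 lay between it and the median.

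The values are the authors' log2 probe set values, averaged over the probe sets of a gene. Probe sets differ in affinity, so a level was not compared between genes, other than to ask whether a gene was bright enough to read. For that, the 1048 olfactory and vomeronasal receptor genes, which beta cells are not known to use, served as a scale of dim signal. The 95th percentile of their mean values was 5.84 (log2), and 66.8% of all genes lay above it. The median of all gene means was 6.66. Of the 8 caspases, 5 lay above 5.84: Casp1, Casp2, Casp4, Casp8 and Casp9. Casp6, Casp12 and Casp14 lay below it in mean level, so little can be read from their differences. Array medians ran from 7.02 to 7.19. Meg3 replicate 1 and vector replicate 2 stood apart in how far their probe set values scattered about the other arrays' median. The SD of that scatter was 0.63 and 0.85 log2 units there, and 0.42 to 0.48 on the remaining 4. The transfected gene, Meg3, read 7.24, 7.91 and 7.53 in the Meg3 cultures, against 5.63, 6.00 and 5.88 in the vector cultures. Its groups did not overlap, and it was 3.30-fold higher in the Meg3 clone (log2 difference 1.72, SE 0.19; limma adjusted p = 0.00756).

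Across the family, the inflammatory pair Casp4 and Casp1 fell in the Meg3 clone and no caspase rose. At an adjusted p under 0.05 (limma over all genes, Benjamini-Hochberg), 2 of 8 caspases were lower and 0 higher, against 0.465% of 20416 genes called lower and 0.201% called higher (0.666% in either direction). At an unadjusted p under 0.05, 3 caspases were lower and 0 higher, Casp8 being the additional gene, against 4.28% and 2.68% of all genes. The groups did not overlap for Casp4, Casp1 and Casp8, all with Meg3 below vector, which was true of 6.39% of all genes, while 6.41% had Meg3 above without overlap. The median log2 difference was -1.34 for the 3 inflammatory caspases and -0.18 for the 4 apoptotic ones, beside 0.01 for all genes. The inflammatory median is that of Casp1, with Casp4 below it and Casp12 near 0. Without the arrays that lay furthest out, a setting chosen after their spread was seen, 3 of 8 caspases were called lower and 0 higher, against 4.01% and 1.43% of all genes (5.44% in either direction).

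**Figure D1:**
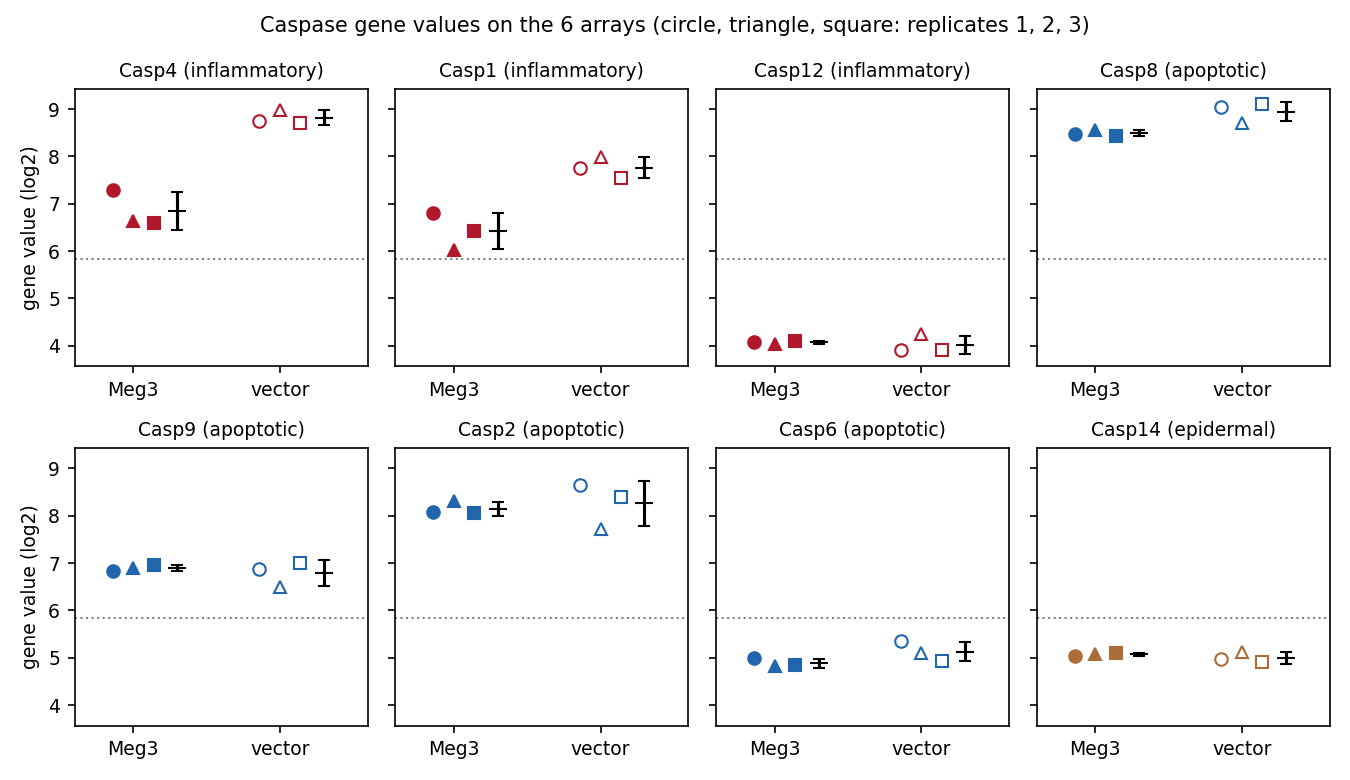
Gene values (log2) of the 8 caspases on each array, with the Meg3 cultures (filled) left of the vector cultures (open); circles, triangles and squares are replicates 1, 2 and 3, black bars are the mean ± SD (n = 3), and the dotted line is the dim-signal scale of 5.84. Casp4 and Casp1 were lower in all 3 Meg3 cultures, Casp8 by less, and Casp12, Casp6 and Casp14 lay under the line in every culture.

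Casp4 had gene values of 7.30, 6.64 and 6.59 in the Meg3 cultures, against 8.75, 8.99 and 8.70 in the vector cultures. The groups lay far apart, with 1.40 log2 units between the highest Meg3 culture and the lowest vector culture. Its mean was 6.85 ± 0.40 in the Meg3 clone and 8.82 ± 0.16 in the vector clone (SD, n = 3 each). That was a log2 difference of -1.97 (SE 0.20; limma adjusted p = 0.00665), or 3.92-fold lower in the Meg3 clone. Meg3 replicate 1, an array that stood apart, read 0.69 above the mean of the other Meg3 cultures, and vector replicate 2 read 0.27 above the other vector cultures. Without both the difference was -2.11 (SE 0.10). The direction held with each array left out, but the call was lost without Meg3 replicate 2 (limma adjusted p = 0.0560) or Meg3 replicate 3 (0.0575). It was also lost when the brightest probe set stood for the gene (difference -2.15, limma adjusted p = 0.0533).

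All 9 Casp4 probe sets were lower in the Meg3 clone, and for all 9 the groups did not overlap, against 5.41% of all 241419 probe sets with Meg3 below vector. Their differences ran from -2.39 to -1.03 on the log2 scale. The brightest, probe set 10583005, read 9.24, 8.08 and 8.79 in the Meg3 cultures, against 10.89, 10.97 and 10.71 in the vector cultures. The dimmest, probe set 10583007, read 4.45, 4.41 and 4.28 in the Meg3 cultures, against 6.34, 6.99 and 6.58 in the vector cultures. The difference was present in bright and dim probe sets of the gene, with means of -2.00 over the 3 brightest and -1.68 over the 3 dimmest. The smallest difference, -1.03, belonged to probe set 10582999, which read 7.11, 7.25 and 6.87 in the Meg3 cultures, against 8.11, 8.14 and 8.08 in the vector cultures. In single tests limma called 0 of these 9 (smallest adjusted p = 0.0942), against 0.000828% of all probe sets called lower.

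Casp1 had gene values of 6.80, 6.03 and 6.43 in the Meg3 cultures, against 7.76, 7.99 and 7.54 in the vector cultures. Here too the groups did not overlap, with a gap of 0.74 log2 units between them. Its mean was 6.42 ± 0.38 in the Meg3 clone and 7.76 ± 0.22 in the vector clone (SD, n = 3 each), a log2 difference of -1.34 (SE 0.21; limma adjusted p = 0.0337), or 2.54-fold lower in the Meg3 clone. As with Casp4, Meg3 replicate 1 was the highest Meg3 culture and vector replicate 2 the highest vector culture, by 0.57 and 0.34 over the others of their group. Without both arrays the difference was -1.42 (SE 0.14). The call was lost without Meg3 replicate 2 (limma adjusted p = 0.133), Meg3 replicate 3 (0.210), vector replicate 1 (0.120) or vector replicate 3 (0.0874). It was lost as well with the median (-0.91, limma adjusted p = 0.0706) or the brightest (-1.09, 0.272) of its probe sets in place of the mean.

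All 11 Casp1 probe sets were lower in the Meg3 clone, by -2.22 to -0.74 on the log2 scale. For 8 the groups did not overlap, against 5.41% of all probe sets with Meg3 below vector. The largest difference was in the dimmest, probe set 10582992, which read 3.87, 4.13 and 3.89 in the Meg3 cultures, against 5.89, 6.23 and 6.42 in the vector cultures. The brightest, probe set 10582987, read 8.96, 8.55 and 8.10 in the Meg3 cultures, against 9.60, 9.94 and 9.34 in the vector cultures. The 3 whose groups overlapped were spread widely among the Meg3 cultures. One of them, probe set 10582990, read 6.72, 4.24 and 6.55 there, against 6.78, 7.18 and 6.44 in the vector cultures, so its difference of -0.97 came largely from Meg3 replicate 2. In single tests limma called 0 of these 11 (smallest adjusted p = 0.0933), against 0.000828% of all probe sets called lower. Casp1 and Casp4 are related in sequence, and whether probes of either read RNA of the other was not tested.

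Casp12, the third gene of the block, encodes a protease linked in rodents to the endoplasmic reticulum. Its gene values were 4.07, 4.03 and 4.10 in the Meg3 cultures, against 3.90, 4.25 and 3.92 in the vector cultures. The groups overlapped at a level below the dim-signal scale, and the difference was 0.04 (SE 0.13). Of its 12 probe sets, 7 had negative and 5 positive differences, from -0.25 to 0.35, and 1 had Meg3 above without overlap, as had 6.08% of all probe sets. Their mean levels ran from 2.97 to 6.50. The brightest, probe set 10583011, read 6.86, 6.49 and 6.61 in the Meg3 cultures, against 6.12, 6.65 and 6.27 in the vector cultures, which overlap.

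**Figure D2:**
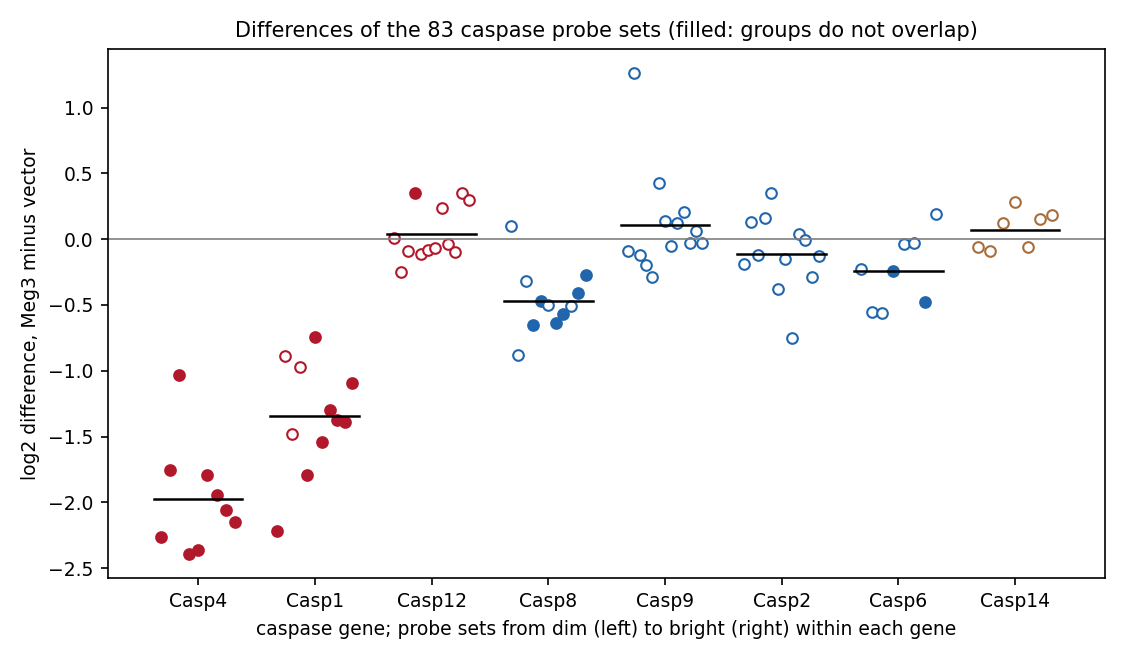
Log2 differences (Meg3 minus vector) of the 83 caspase probe sets, ordered from dim to bright within each gene; filled points are probe sets whose groups do not overlap, open points those that do, and black lines are the gene differences. Every Casp4 and Casp1 probe set lies below 0, as do 10 of 11 for Casp8 (down to -0.88) and 7 of 8 for Casp6 (down to -0.56), while Casp2, Casp9, Casp12 and Casp14 have points on both sides of 0.

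Of the apoptotic caspases, Casp8 came nearest to a call. It had gene values of 8.48, 8.55 and 8.43 in the Meg3 cultures, against 9.05, 8.71 and 9.11 in the vector cultures. The groups did not overlap, but only 0.16 log2 units lay between them, vector replicate 2 being the vector culture close to the Meg3 level. The means were 8.49 ± 0.06 in the Meg3 clone and 8.95 ± 0.21 in the vector clone (SD, n = 3 each), a difference of -0.47 (SE 0.14) that was not called (limma adjusted p = 0.331). Without vector replicate 2, which read 0.37 below the other vector cultures, it was called at -0.59 (SE 0.11; limma adjusted p = 0.0369), and without both outlying arrays likewise (-0.59, SE 0.10; limma adjusted p = 0.00854). Of its 11 probe sets, 10 had negative differences, against 48.8% of all probe sets. In 6 of them the groups did not overlap, against 5.41% of all probe sets with Meg3 below vector. The brightest, probe set 10346569, read 10.61, 10.64 and 10.45 in the Meg3 cultures, against 10.83, 10.85 and 10.83 in the vector cultures, a difference of -0.27. The 1 positive difference, 0.10, was that of the dimmest probe set.

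Casp9 had gene values of 6.84, 6.89 and 6.96 in the Meg3 cultures, against 6.87, 6.49 and 7.0 in the vector cultures. The groups overlapped, and the difference was 0.11 (SE 0.15), with vector replicate 2 reading 0.45 below the other vector cultures. Of its 13 probe sets, 7 had negative and 6 positive differences. The largest, 1.26 in probe set 10510038, rested on low readings of vector replicates 1 and 2, since it read 6.84, 6.76 and 6.38 in the Meg3 cultures, against 5.53, 4.11 and 6.58 in the vector cultures. Without vector replicate 2 the gene difference was -0.04 (SE 0.11), a change of sign.

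Casp2, an initiator caspase linked to the PIDDosome and to the DNA damage response, had gene values of 8.07, 8.32 and 8.05 in the Meg3 cultures, against 8.65, 7.72 and 8.40 in the vector cultures. The Meg3 cultures lay inside the range of the vector cultures. The difference was -0.11 (SE 0.23) with all arrays, -0.38 without vector replicate 2 and 0.09 without vector replicate 1. Vector replicate 2 read 0.81 below the other vector cultures. The brightest probe set, 10537741, read 11.47, 11.41 and 11.45 in the Meg3 cultures, against 11.43, 11.72 and 11.57 in the vector cultures. Its difference of -0.13 was close to that of the gene.

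Vector replicate 2 was the highest vector culture for Casp4, Casp1, Casp12 and Casp14 and the lowest for Casp2, Casp8 and Casp9. The differences of Casp2, Casp8 and Casp9 without it are those given above.

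Casp6 had gene values of 4.99, 4.83 and 4.84 in the Meg3 cultures, against 5.36, 5.09 and 4.94 in the vector cultures. All of them lay below the dim-signal scale, and the groups overlapped by 0.05 log2 units. The difference was -0.24 (SE 0.14), with 7 of 8 probe sets negative but the brightest at 0.19. Casp14, which is known for its part in the cornifying epidermis, had gene values of 5.04, 5.07 and 5.10 in the Meg3 cultures, against 4.97, 5.12 and 4.90 in the vector cultures. It too was dim, and it differed by 0.07 (SE 0.12). Of its 7 probe sets, 3 had negative and 4 positive differences, from -0.09 to 0.28.

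Taking probe sets by class, 27 of 32 for the inflammatory caspases (84.4%), 32 of 44 for the apoptotic caspases (72.7%) and 3 of 7 for Casp14 had a negative difference, against 48.8% of all probe sets. Of the inflammatory ones, 20 of 20 belonged to Casp1 and Casp4 and 7 of 12 to Casp12. Of the apoptotic ones, 10 of 11 belonged to Casp8, 7 of 8 to the dim Casp6, 8 of 12 to Casp2 and 7 of 13 to Casp9. The probe sets of a gene share its RNA and are not replicates of the clones. A fall of 1 or more on the log2 scale was seen in 9 of 9 Casp4 and 8 of 11 Casp1 probe sets, against 1.66% of all probe sets, and in 0 of the remaining 63.

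The chromosome 9 block was set beside its measured neighbours, 8 before it (all that the arrays measured on that side) and 10 after it. Of these 18 genes, 1 was called, against 0.666% of all genes in either direction. The 18 had a median difference of 0.04 and a range from -0.21 to 0.77. The called gene was Gria4, a glutamate receptor subunit gene and the nearest measured gene before Casp1. It was higher in the Meg3 clone, at 9.01, 8.78 and 8.68 in the Meg3 cultures, against 8.03, 8.08 and 8.03 in the vector cultures (log2 difference 0.77, SE 0.13; limma adjusted p = 0.0420). Its groups did not overlap. The nearest measured gene after Casp12, the growth factor gene Pdgfd, was dim and differed by 0.10 (SE 0.11). None of the 18 was called lower, and 9 of them lay above the dim-signal scale.

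**Figure D3:**
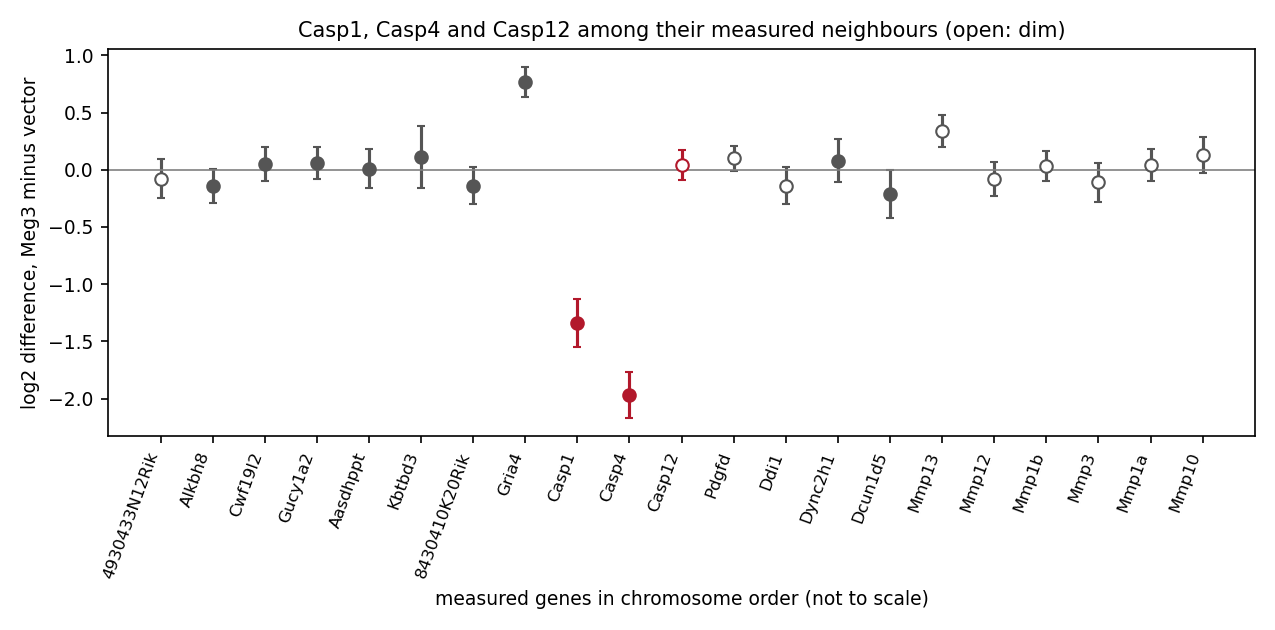
Log2 differences (Meg3 minus vector, with standard errors) of Casp1, Casp4 and Casp12 (red) and of the 18 measured genes around them (grey) in chromosome order, not to scale; open points are genes below the dim-signal scale. Casp1 and Casp4 lie at -1.34 and -1.97, Gria4 at 0.77, and the others between -0.21 and 0.34.

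By root mean square distance between profiles over the 6 arrays, each centred on its own mean, the 3 genes nearest to Casp4 out of 16912 with at least 3 probe sets were BC028528 (distance 0.11), Pon3 (0.13) and Tnfsf10 (0.18). Pon3 encodes a lactonase of the paraoxonase family and Tnfsf10 the death ligand TRAIL. BC028528 read 6.94, 6.18 and 6.43 in the Meg3 cultures, against 8.36, 8.49 and 8.24 in the vector cultures. Like Casp4, it was highest in replicate 1 among the Meg3 cultures and in replicate 2 among the vector cultures. Because it was picked for its near profile, this likeness is no separate result. Casp1 stood at place 18 in that order, at a distance of 0.35. The gene nearest to Casp1, chosen after its value was seen, was Samd9l, an interferon-induced gene, at a distance of 0.09. It read 8.89, 8.07 and 8.37 in the Meg3 cultures, against 9.66, 10.15 and 9.54 in the vector cultures. Its difference was -1.34 (SE 0.24), which was not called (limma adjusted p = 0.0602).

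Of the genes that sense, assemble or act below the inflammatory caspases, Naip2 passed the test. In a list of inflammasome and pyroptosis genes with 27 members measured, 1 was called lower and 0 higher (median difference 0.01), against 0.465% and 0.201% of all genes. At an unadjusted p under 0.05, 2 were lower and 1 higher, against 4.28% and 2.68% of all genes. The called gene was Naip2, a sensor of bacterial secretion systems in mice, at 5.73, 5.56 and 5.54 in the Meg3 cultures, against 6.77, 6.66 and 6.92 in the vector cultures (log2 difference -1.17, SE 0.12; limma adjusted p = 0.00713). Its groups did not overlap, but the Naip genes are close copies of each other and probes may not tell them apart. The list's 1 call was lost without Meg3 replicate 2 or Meg3 replicate 3, with the replicate block, and with the median or the brightest probe set. Only 12 of the 27 lay above the dim-signal scale, and the cytokine genes Il1b (mean level 5.83) and Il18 (4.28) were not among them. Chosen after their values were seen, the inflammasome adaptor gene Pycard differed by -0.17 (SE 0.12), the gasdermin D gene Gsdmd by -0.21 (SE 0.14) and the IL-1 receptor gene Il1r1 by -0.35 (SE 0.14). Il1r1 was bright, with mean log2 values of 11.46 ± 0.21 in the Meg3 clone and 11.81 ± 0.13 in the vector clone (SD, n = 3 each). Without both outlying arrays 3 members were called lower (Naip2, Il1r1 and Txnip, whose product binds thioredoxin) and 2 higher (the sensor gene Nlrp3 and the protease inhibitor gene Serpinb1a, both dim), against 4.01% and 1.43% of all genes.

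Genes around the apoptotic caspases did not pass the test with all 6 arrays weighted equally. In a list of 26 genes for platforms, inhibitors and substrates, 0 were called by limma, against 0.666% of all genes in either direction. The median difference was -0.02. Without both outlying arrays 0 were called as well, against 5.44% of all genes. With array weights 3 were called lower and 1 higher, against 1619 and 1063 of 20416 genes. At an unadjusted p under 0.05, 2 were lower and 1 higher, against 4.28% and 2.68% of all genes. All 26 lay above the dim-signal scale. The brightest were Rock1, a kinase cut by caspases, at -0.01 (SE 0.16), and Cycs, which encodes cytochrome c, at 0.01 (SE 0.22). Genes next to caspase-8 and caspase-9 in their pathways follow, chosen after their values were seen. Fadd, the adaptor that recruits caspase-8, read 7.39, 7.51 and 7.35 in the Meg3 cultures, against 7.84, 7.82 and 7.70 in the vector cultures. Its groups did not overlap, and its difference of -0.37 (SE 0.11) was not called (limma adjusted p = 0.369). Cflar, whose product restrains caspase-8, differed by -0.14 (SE 0.13), and Apaf1, the scaffold of the apoptosome, by -0.13 (SE 0.15). Cradd, the list's 1 gene higher at an unadjusted p under 0.05, went the other way. It read 6.78, 6.65 and 6.54 in the Meg3 cultures, against 6.30, 6.12 and 6.30 in the vector cultures, without overlap. Its difference of 0.41 (SE 0.12) was not called (limma adjusted p = 0.331).

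Genes of the interferon, Toll-like receptor and NF-κB pathways, which induce Casp1 and Casp4 in mouse cells, were not called with all 6 arrays weighted equally. Differences were negative for 14 of the 16 measured, against 9879 of 20416 genes in all, and their median was -0.25. By limma 0 of them passed the adjusted threshold, against 0.666% of all genes in either direction. At an unadjusted p under 0.05, 5 were lower and 0 higher, against 4.28% and 2.68% of all genes. The brightest were Irf2, an interferon regulatory factor, at -0.26 (SE 0.20), and Ifngr2, an interferon-γ receptor chain, at -0.64 (SE 0.26). Without vector replicate 2 alone, 2 of the 16 were called lower, against 271 of 20416 genes. Without both outlying arrays 5 were called lower and 0 higher, against 4.01% and 1.43% of all genes. These were Irf1, Irf2, Irf9, Ifngr2 and Myd88, with differences from -0.75 for Ifngr2 to -0.41 for Irf2. In vector replicate 2 each of these 5 genes was the lowest of the vector cultures, as were Casp2, Casp8 and Casp9.

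The labelled cell type was checked against markers. All 7 measured beta cell markers, Ins2 and Iapp among them, lay above the dim-signal scale, with summed levels of 14.44 to 14.55 (log2) in the Meg3 cultures and 14.55 to 14.72 in the vector cultures. Inflammatory caspases are abundant in macrophages, and 7 of 8 leukocyte markers, Ptprc (CD45), Csf1r and Adgre1 included, lay below it, Cd68 being the exception. The summed level of the leukocyte list ran from 9.02 to 9.24 (log2) in the Meg3 cultures and from 8.99 to 9.59 in the vector cultures, so the groups overlapped. Of the endothelial markers 0 of 3, of the fibroblast markers 3 of 5 and of the keratinocyte markers 4 of 7 lay above the scale. Summed levels of these 3 lists overlapped between the clones. In each of the 5 marker lists limma called 0 genes, against 0.666% of all genes in either direction. At an unadjusted p under 0.05, 1 beta cell marker was lower and 1 leukocyte marker was higher, against 4.28% and 2.68% of all genes. In the other 3 lists 0 markers passed that threshold. Lists this short would hold few calls at these shares.

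**Figure D4:**
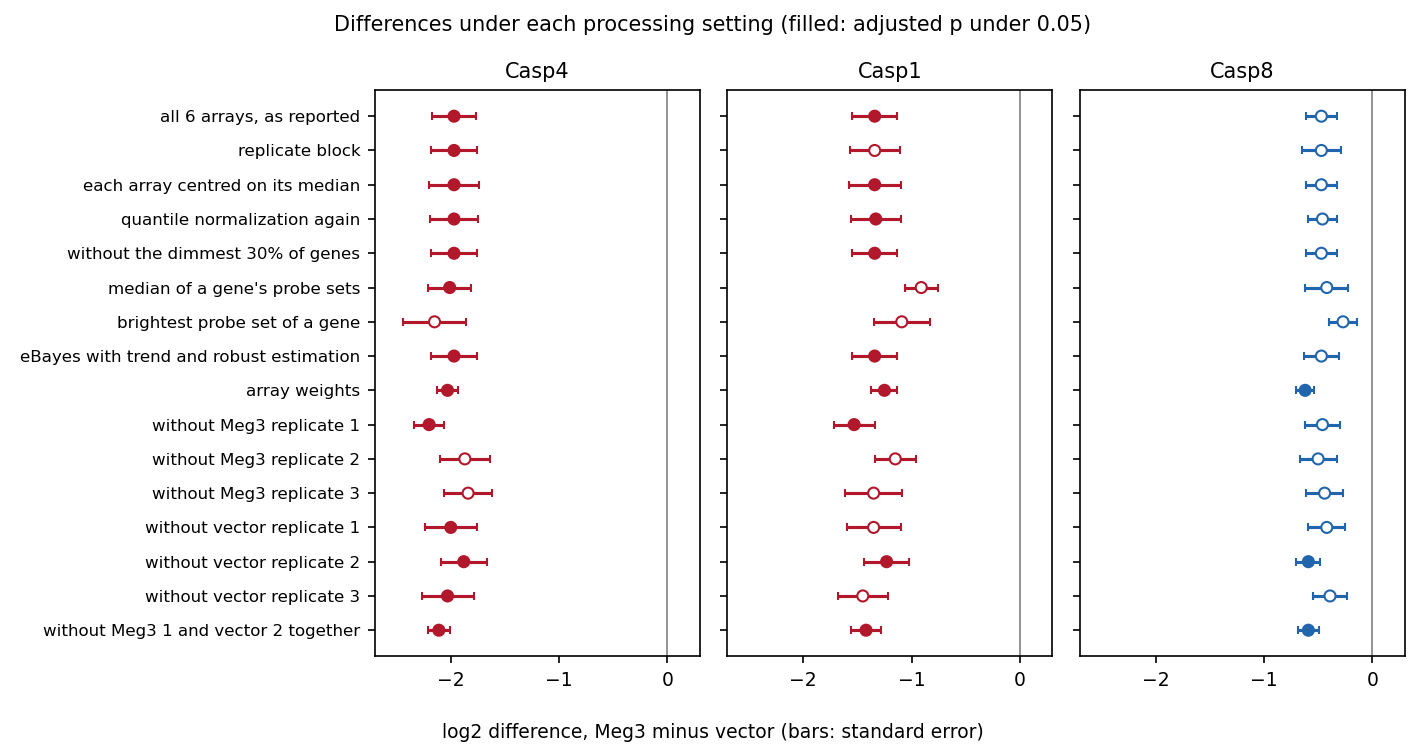
Log2 differences (Meg3 minus vector, with standard errors) of Casp4, Casp1 and Casp8 as reported and under 15 other processing settings; filled points had an adjusted p under 0.05 (limma). All values lie below 0, and of the 15 other settings Casp4 was called in 12, Casp1 in 8 and Casp8, which was not called as reported, in 3.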

How the data were processed

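The deposited values are log2 signals, 1 for each probe set and array, and the submitters' processing notes name RMA and Partek. RMA corrects background, makes array distributions alike and summarises probes on the log2 scale, so a difference shared by most genes would be removed, and differences of dim probe sets are compressed. No version or genome build is given for these steps in the sources used here. Per the labels' protocols, 6 µg of total RNA from each culture was labelled with biotin.

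From the 241419 probe sets, the 212097 with 1 symbol were averaged per gene. No probe set named a caspase among several symbols. Probe sets were grouped by the symbol in the array annotation, and current names were looked up through RefSeq (GRCm38.p6) without regrouping. A linear model for both groups (difference as Meg3 minus vector, no covariate, no filter on dim genes) was fitted with lmFit of limma 3.58.1 under R 4.3.3 and moderated with eBayes. Its two-sided p-values were adjusted by Benjamini-Hochberg over the 20416 genes or, for single probe sets, over all of those. Errors of differences are moderated standard errors. In an exact permutation test with 3 arrays a group, the smallest possible two-sided p is 0.1, so it cannot pass 0.05 and was not used. The steps were tested on simulated data. Arrays carry no depth, and their number limits the precision.

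The members and the gene lists were chosen with earlier results of these data known. Genes named were the 8 caspases, Meg3, the nearest measured neighbours of the chromosome block, the 3 profiles nearest to Casp4 and, from each list, up to 4 called members (the 2 higher and the 2 lower with the largest differences) or, with none called, the 2 of highest mean level. Any other gene, such as those called only without the outlying arrays, was picked once its values were known.

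Alternatives were a replicate block, median centring, quantile normalization again, leaving out the dimmest 30% of genes (or probe sets), the median or brightest probe set, eBayes with trend and robust estimation, array weights, leaving out each array and, chosen after seeing the data, leaving out Meg3 replicate 1 and vector replicate 2 together.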

Additional observations from a re-analysis of the deposited data

How the results depend on the processing

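Casp4 and Casp1 were lower in the Meg3 clone in all 15 alternative fits, with ranges of -2.20 to -1.84 and -1.53 to -0.91. Casp4 was called in 12 of them and Casp1 in 8. With 1 array left out at a time, Casp4 ran from -2.20 to -1.84 and Casp1 from -1.53 to -1.15, and from 0 to 3 caspases were called lower, among 8 to 78 genes called higher and 14 to 271 called lower over all genes. Fewer arrays leave less to estimate the spread from; apart from that, the causes of the changes here were not tested. With the replicate block Casp4 stayed called, Casp1 was not (difference -1.34, limma adjusted p = 0.126), 1 caspase was lower, and 11 genes were higher and 19 lower. The numbers do not pair the arrays: deviations of same-numbered arrays correlated at -0.614, -0.628 and 0.276. The median of a gene's probe sets gave 16 genes higher and 42 lower, 1 caspase lower, and moved Casp1 and the inflammatory median to -0.91. The brightest probe set gave 12 genes higher and 28 lower and 0 caspases called by limma, with Casp4 at -2.15 and Casp1 at -1.09. Array weights, whose estimate stopped before full convergence, gave 1063 genes higher and 1619 lower, and called 3 inflammasome and pyroptosis genes higher and 4 lower, 1 apoptotic platform, inhibitor or substrate gene higher and 3 lower, and 0 inducer genes higher and 7 lower. Without Meg3 replicate 1 and vector replicate 2 together, 292 genes were higher and 819 lower. Signs turned only for genes that were not called. Casp2 was 0.09 without vector replicate 1 (-0.38 to 0.09 over the fits with 1 array left out), and Casp6 was 0.19 with the brightest probe set. Casp9 was -0.03 with the median or the brightest probe set, -0.07 with array weights, -0.04 without vector replicate 2 (-0.04 to 0.22 over such fits) and -0.01 without both outlying arrays. Casp12 was -0.02 without vector replicate 1 and -0.01 without vector replicate 3 (-0.02 to 0.15). Leaving out the dimmest 30% of genes removed Casp6, Casp12 and Casp14, so it gave no value for them or for the class medians. In the fits of single probe sets, 0 caspase probe sets were called by limma in either direction.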
